A study of Arabidopsis thaliana with 6 samples.

Results

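Tau glutathione transferases are plant-specific enzymes that join the tripeptide glutathione to reactive or foreign compounds, and the conjugates are then carried into the vacuole. They belong to the detoxification machinery that plants raise against herbicides, safeners and other organic chemicals, and several of them are also linked to hormone signalling and to secondary metabolism. The 5 genes described here are GSTU16, GSTU18, GSTU20, GSTU23 and GSTU27, found as the probe sets that carry one of these genes and no other in the platform annotation. They are 5 of 13513 probe sets with 1 gene and 5 of the 11 tau genes that have such a probe set, out of 28 tau genes listed.

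RNA came from leaves of Arabidopsis thaliana ecotype Col-0, aged 28 days, grown in sterile jars and sprayed either with distilled water or with Tween 20, a non-ionic detergent, at 1.6 mM. Leaves of either spray were taken at 1 h in IA and in IB, a biological repetition of IA, and at 2.5 h in II, with a pair of arrays (water and Tween) for each of these 3 experiments. Each of the 6 Affymetrix arrays carried a pool of 3 RNA extracts, so that variation among extracts is not visible and precision is limited by the small number of arrays. The treatment text of the labels names water for the Tween samples too and 2.5 h for both IA samples, so groups follow the sample titles and the series' design text.

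Signals are MAS5 probe set intensities in linear units, and a signal was taken as dim where it lay under the 40th percentile of its own array (20.6 to 23.9 units). A probe set entered the tests if at least 2 of the 6 arrays reached that percentile, as 14345 did. Leaf identity was checked with 12 photosynthesis genes, of which 4 were measured. The summed signal of RCA, LHCB4.2, SBPASE and PRK was 9645 to 11956 units, whereas the 2 measured root genes of 8, EXPA7 and EXPA18, summed to 18.2 to 37.0 units and were dim on every array. The 3'/5' signal ratio of the actin control is a sign of RNA integrity and labelling. On the log2 scale it differed between experiments, at 2.94 (water) and 2.76 (Tween) in IB against 4.13 and 4.26 in IA. In the same order, the GAPDH control was at -0.06 and 0.20 in IB against 0.52 and 0.38 in IA. The ubiquitin control, at 1.00 and 0.91 in IB and 0.92 and 1.12 in IA, did not separate them.

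All of the 5 genes except GSTU23 were clearly measured in leaf. GSTU16, GSTU18, GSTU20 and GSTU27 exceeded the 40th percentile on all 6 arrays, and their dimmest signals were 7.77, 5.26, 28.0 and 8.58 times that percentile. GSTU23 ran from 0.90 to 1.42 times the percentile and reached it on 4 of the 6 arrays, so calling it expressed in leaf is not borne out by these values. The closest probe set on the other side of the limit was GSTU25, an enzyme known to act on the explosive TNT, which reached the percentile on 1 of the 6 arrays. GSTU25 was at 8.4 units (water) and 28.1 units (Tween) in IA, 18.3 and 19.1 units in IB, and 15.8 and 20.2 units in II. Its Tween signal was the higher in each pair, and the 28.1 units in IA were its single value above the limit, so no fold is given. The other 5 measured tau genes, GSTU15, GSTU21, GSTU22, GSTU26 and GSTU28, were dim on all 6 arrays, between 0.9 and 21.0 units.

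**Figure D1:**
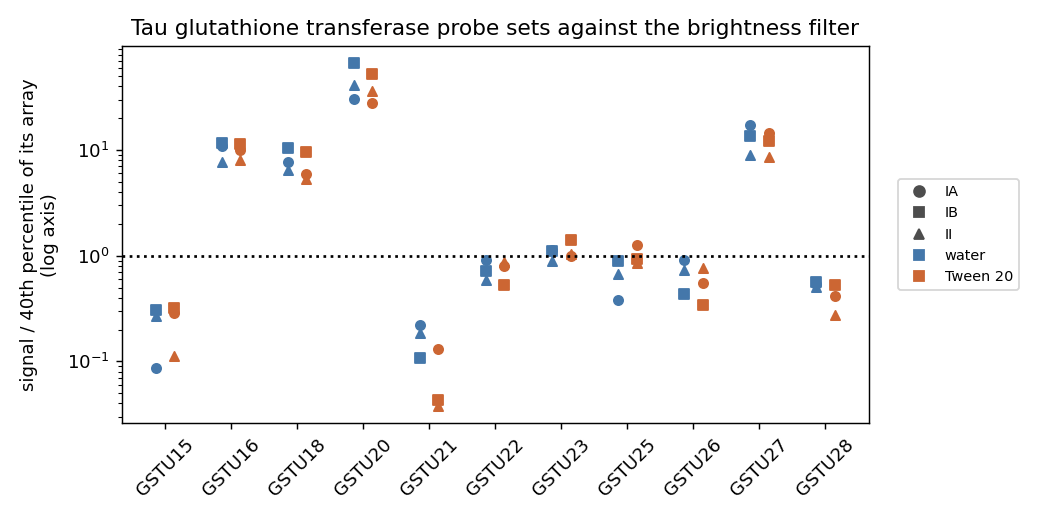
Signal of the 11 tau probe sets divided by the 40th percentile of the same array (log axis, dotted line at 1), with 1 point per array, shapes for the experiments and colours for the sprays. GSTU16, GSTU18, GSTU20 and GSTU27 lie at 5.26 times the percentile or more on every array, GSTU23 lies at the line, and of the other 6 only GSTU25 crosses it, on 1 array.

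In the genome annotation GSTU20 and GSTU23 lie in one tandem array, with GSTU21 and GSTU22 as the 2 protein-coding genes between them and GSTU19 directly beside GSTU20. Within this array of duplicated genes, GSTU20 was bright on every array, GSTU23 was at the brightness limit, and GSTU21 and GSTU22 were dim throughout. GSTU18 lies directly beside GSTU17, and 3 protein-coding genes separate GSTU16 from GSTU15. Near-identical copies can share probes, and the extent of cross-hybridisation between neighbours was not tested.

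GSTU20, which is known to bind the jasmonate-conjugating enzyme FIN219 and to take part in aliphatic glucosinolate synthesis, was measured at 665.6 units with water and 618.6 units with Tween 20 in IA. In IB it stood at 1367.1 units with water and 1078.7 units with Tween 20, and in II at 987.0 and 863.1 units. The Tween signal was the lower of each pair, with a deficit of 7.06% in IA, of 21.1% in IB and of 12.6% in II. Both IB arrays lay above all others and both IA arrays below all others, so the sprays overlapped across experiments and separated only within them. By groups, water at 1 h averaged 1016 ± 496 units (SD, n = 2) and Tween at 1 h 849 ± 325 units (SD, n = 2), and each 2.5 h array lay within the range of the matching 1 h arrays.

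GSTU18, the close relative and direct neighbour of the drought-related GSTU17, was at 170.3 units with water and 132.2 units with Tween 20 in IA. In IB the signals were 213.8 and 198.6 units, and in II they were 154.8 and 125.8 units. Tween 20 was again the lower spray in each pair, by 22.4%, 7.11% and 18.7% in IA, IB and II. The 1 h means were 192 ± 30.8 units with water and 165 ± 47.0 units with Tween 20 (SD, n = 2 each), and both 2.5 h arrays lay below the matching 1 h arrays.

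GSTU27 was at 377.8 units with water and 322.0 units with Tween 20 in IA, at 280.6 and 253.3 units in IB, and at 213.2 and 205.1 units in II. Here IA was the brightest experiment and II the dimmest, with no overlap between experiments, and Tween 20 was lower by 14.8%, 9.73% and 3.80%. GSTU16 was at 239.1 units with water and 220.8 units with Tween 20 in IA, at 238.6 and 234.5 units in IB, and at 184.9 and 190.8 units in II. Its water signals at 1 h, 239 ± 0.35 units (SD, n = 2), were nearly equal, and Tween 20 was the lower spray in both 1 h pairs and the higher one at 2.5 h. GSTU23 was at 24.9 units with water and 21.9 units with Tween 20 in IA, at 23.0 and 29.3 units in IB, and at 21.4 and 25.0 units in II. Tween 20 was lower in IA and higher in IB and II, at signals where a few units make up the whole fold.

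**Figure D2:**
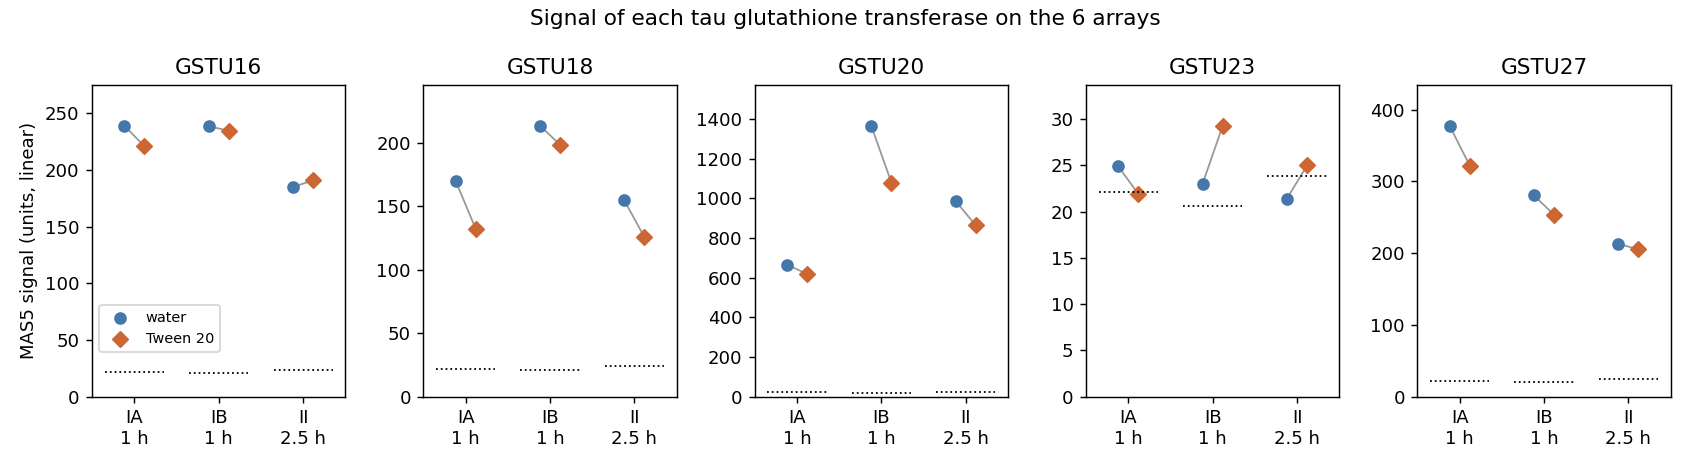
MAS5 signal (linear units, axis from 0) of each gene on the 6 arrays, with water as circles, Tween 20 as diamonds, a line joining the arrays of 1 experiment, and a dotted line at the mean 40th percentile of each pair. GSTU20 ranges from 618.6 to 1367.1 units, mostly between experiments, and GSTU23 stays within 21.4 to 29.3 units around the dotted line.

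The study asked which transcripts respond to Tween 20, and within the pairs all 5 genes stayed close to water. Every one of the 15 ratios of Tween over water lay between 0.776 (GSTU18 in IA) and 1.27 (GSTU23 in IB). All 5 genes were within 1.5-fold of water in all 3 pairs, as were 77.5% of all tested probe sets, and a 2-fold difference in any pair was met by 0 of the 5 and by 7.01% of all tested. GSTU18, GSTU20 and GSTU27, 3 of the 5 genes, were lower with Tween 20 in all 3 pairs, a pattern held by 23.6% of tested probe sets, and 0 of the 5 were higher in all 3 pairs, against 15.2%. In the pairs IA, IB and II the 5 genes had median log2 folds of -0.19, -0.11 and -0.06. Over all tested probe sets the medians were -0.08, -0.03 and -0.02, so the arrays as a whole also lay slightly below 0.

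Over the 3 experiments, limma's paired test with Benjamini-Hochberg adjustment over all 14345 probe sets passed 0 of the 5 genes in either direction, where 1.02% of all tested probe sets rose and 0.105% fell (146 and 15). Without adjustment 1 of the 5, GSTU20, had p under 0.05, as had 2252 (15.7%) of all tested. The estimate for GSTU20 was a log2 fold of -0.21 (95% interval -0.43 to -0.00, adjusted p = 0.317, lower in 3 of 3 pairs). GSTU18 had the largest estimate, -0.26 (interval -0.53 to 0.01, adjusted p = 0.342), and GSTU27 stood at -0.14 (interval -0.39 to 0.10, adjusted p = 0.556). The interval of GSTU16 ran from -0.29 to 0.22 around -0.03, and that of GSTU23 from -0.32 to 0.58 around 0.13. As ratios of Tween over water, the unadjusted intervals were 0.744 to 0.999 for GSTU20 and 0.693 to 1.01 for GSTU18. They were 0.761 to 1.07 for GSTU27, 0.821 to 1.17 for GSTU16 and 0.799 to 1.497 for GSTU23. The upper end for GSTU20 lay just under 1, and this gene did not pass after adjustment (adjusted p = 0.317). The count over all probe sets, 161, became 0 without IA, 0 without II and 730 without IB, while 0 of the 5 genes passed in each of these fits. Leaving out an experiment also cut the residual degrees of freedom from 2 to 1, and the cause of the changes was not tested.

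**Figure D3:**
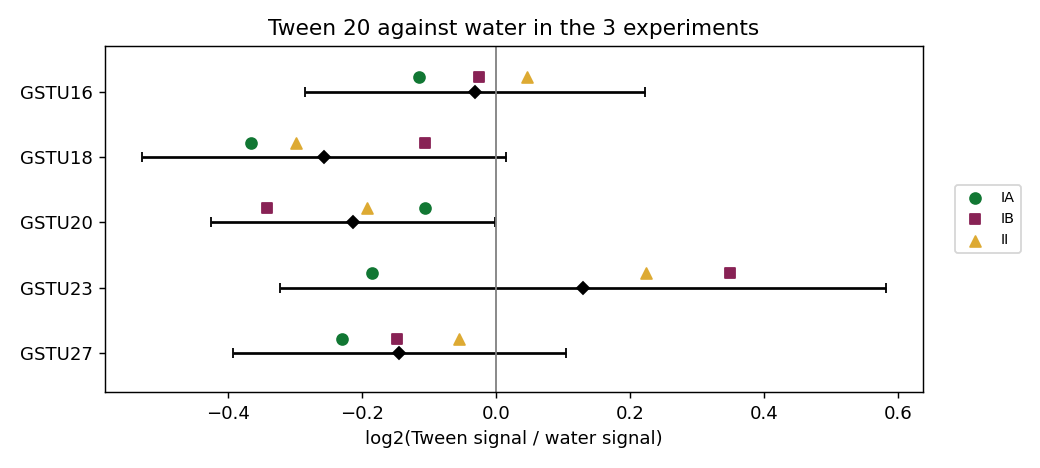
Log2 ratio of Tween over water for each gene in IA (circles), IB (squares) and II (triangles), with limma's estimate over the 3 experiments (black diamonds) and its 95% interval (bars). GSTU18, GSTU20 and GSTU27 have all 3 points left of 0, and the estimates run from -0.26 to 0.13.

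Taken by time, the 1 h pairs gave mean log2 folds of -0.24 ± 0.18 for GSTU18, -0.22 ± 0.17 for GSTU20, -0.19 ± 0.06 for GSTU27, -0.07 ± 0.06 for GSTU16 and 0.08 ± 0.38 for GSTU23 (SD, n = 2 pairs). Of the 5 genes, 4 were lower with Tween 20 in both 1 h pairs, against 36.8% of tested probe sets. limma passed 0 of the 5 at 1 h, with adjusted p from 0.552 to 0.930, and 0% of all probe sets. An unadjusted p under 0.05 was met by 0 of the 5 and by 1691 (11.8%) of all tested. At 2.5 h the log2 folds were -0.30 for GSTU18, -0.19 for GSTU20, -0.06 for GSTU27, 0.05 for GSTU16 and 0.22 for GSTU23, with no replicate of that pair, and 3 of the 5 were lower, against 52.1% of all tested. Tested with the error taken from the 1 h pairs, 0 of the 5 genes and 0% of all probe sets passed in limma. Its unadjusted p was under 0.05 for 0 of the 5 and for 586 (4.09%) of all tested.

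The difference between the 2.5 h and the 1 h effect was small beside its error for each gene. It was 0.03 ± 0.22 for GSTU20, -0.06 ± 0.28 for GSTU18, 0.13 ± 0.25 for GSTU27, 0.12 ± 0.26 for GSTU16 and 0.14 ± 0.46 for GSTU23 (log2, SE of the limma fit). The interaction test passed 0 of the 5 genes and 0% of all probe sets, with 0 of the 5 and 356 (2.48%) of all at an unadjusted p under 0.05. The 95% interval for GSTU20, -0.51 to 0.57, leaves room for differences of that size in either direction, and collection time cannot be told apart from experiment II.

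In all of the genes except GSTU23, most of the variation over the 6 arrays lay between the 3 experiments (2 degrees of freedom) and less between the sprays (1 degree of freedom). The share of the sum of squares of log2 signal between experiments was 94.3% for GSTU16, 93.3% for GSTU27, 91.2% for GSTU20 and 75.3% for GSTU18, against a median of 71.5% over all tested probe sets. The share between sprays was 1.07%, 5.38%, 7.32% and 20.9% for the same genes, against a median of 8.34%. For GSTU23 the experiments held 24.8%, the sprays 18.3% and the remainder 56.9%.

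GSTU20 differed between the 2 repetitions of 1 h. Its signal in IB was 2.05 times that in IA with water and 1.74 times with Tween 20, and the log2 difference IA minus IB was -0.92 (95% interval -1.18 to -0.66, limma's adjusted p = 0.00451). It was the 1 gene of the 5 that passed in this comparison, where 11.2% of all tested probe sets were higher and 11.2% lower in IA than in IB. GSTU18 was also lower in IA, at -0.46 (adjusted p = 0.0572), and passed at adjusted p = 0.0458 after median centring of the arrays and 0.0446 with a filter at the 60th percentile. GSTU27 differed the other way, at 0.39 (adjusted p = 0.0710), while GSTU16 stood at -0.04 and GSTU23 at -0.15. Both IB arrays lay above both IA arrays for 2 of the 5 genes, GSTU18 and GSTU20, and for 26.8% of all tested probe sets. The photosynthesis gene LHCB4.2 fell on the same side, at -0.55 (adjusted p = 0.0139, lost without the intensity trend at 0.0539 and with no filter at 0.0720), and RCA, SBPASE and PRK stood at -0.13, 0.02 and -0.04. The part of the lower actin 3'/5' ratio of IB, or of leaf condition, in these differences was not tested, and in leaf RNA fewer cells with a transcript and less of it per cell cannot be told apart.

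**Figure D4:**
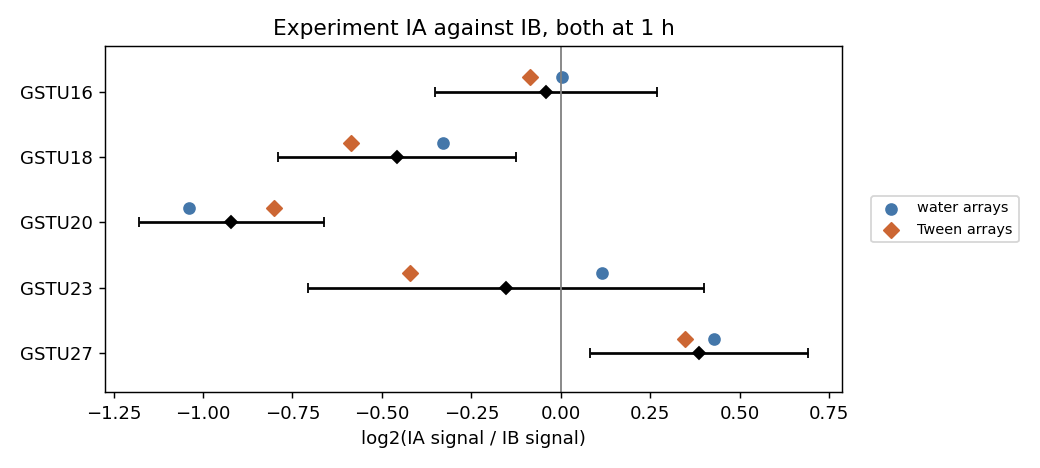
Log2 difference of IA minus IB, both collected at 1 h, for water arrays (circles), Tween arrays (diamonds) and limma's estimate over both (black diamonds) with its 95% interval (bars). GSTU20 lies at -1.04 with water and -0.80 with Tween 20, and GSTU27 lies on the other side of 0 at 0.43 and 0.35.

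Experiment II, the 2.5 h collection, was set against the mean of IA and IB over both sprays. GSTU27 was lower in II, at a log2 difference of -0.54 (95% interval -0.81 to -0.28, limma's adjusted p = 0.0259), and its water signal in IA was 1.77 times that in II. It was the 1 gene of the 5 that passed, where 8.21% of all tested probe sets were higher and 6.23% lower in II (1178 and 894, or 841 and 959 after median centring). With no filter on dim probe sets its adjusted p was 0.0528. GSTU18 was at -0.33 and GSTU16 at -0.31 (adjusted p = 0.108 and 0.107), GSTU23 at -0.09 and GSTU20 at 0.06. Both II arrays lay below all 4 arrays of IA and IB for 2 of the 5 genes, GSTU16 and GSTU27, and for 10.5% of all tested probe sets. Among the leaf markers, RCA and SBPASE stood close to 0 in this comparison, at -0.05 and 0.03 (limma's adjusted p = 0.619 and 0.829). PRK and LHCB4.2 were higher in II, at 0.35 (adjusted p = 0.0328) and 0.34 (adjusted p = 0.0471), so that their direction opposed that of GSTU27. Both calls were lost without the intensity trend (0.116 and 0.137), with no filter (0.146 and 0.171) and after median centring (0.0575 and 0.0752). The 3'/5' log2 ratio of the ubiquitin control was also higher in II, at 1.71 (water) and 1.81 (Tween) against 0.91 to 1.12 on the 4 arrays of IA and IB, and its part in these differences was not tested. Collection time changed together with the experiment, and with whatever else differed between II and the others, so these cannot be told apart.

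The genes did not share one pattern over the 6 arrays. Likeness was measured as the root mean square difference of log2 signals after each gene's own mean was taken off, over 6 arrays and against 7738 other tested genes. Among the 5 genes, GSTU20 and GSTU27 were furthest apart, at 0.61, and GSTU16 and GSTU23 were closest, at 0.17. GSTU23 was still only at rank 731 of the 7738 genes in nearness to GSTU16. The gene most like GSTU20 in all 7738 was GSTL3, a lambda glutathione transferase known to reduce glutathione adducts of flavonols, at 0.07. GSTL3 was at 420.9 units with water and 393.1 units with Tween 20 in IA, at 871.7 and 715.6 units in IB, and at 570.7 and 499.0 units in II. Like GSTU20 it was lowest in IA, highest in IB and lower with Tween 20 in each pair, with an IA minus IB difference of -0.96 and a Tween estimate of -0.19, which follow from its choice as the nearest pattern. The second was AT4G31040, at 0.08.

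For the other genes the nearest patterns came from outside the glutathione transferases. They were AT1G18270 (0.02) and AT5G09850 (0.04) for GSTU16, and AT4G33490 (0.05) and AT2G35120 (0.06), a glycine decarboxylase H protein of photorespiration, for GSTU18. For GSTU23 they were AtRZ-1b (0.04), an RNA-binding zinc finger protein, and AT1G49850 (0.05), and for GSTU27 AT2G41190 (0.05) and AT1G26300 (0.09). The 6 arrays come as pairs from 3 experiments, so a near pattern here describes these arrays and carries no test.

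**Figure D5:**
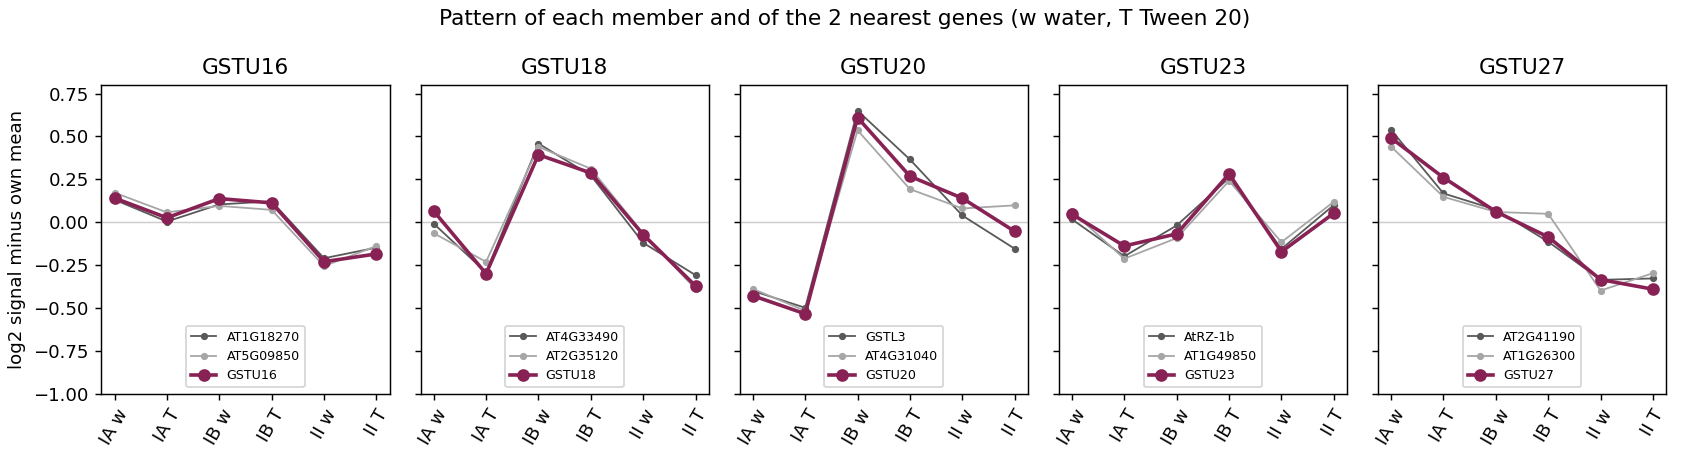
Log2 signal minus the gene's own mean over the 6 arrays (w, water; T, Tween 20), for each gene (thick line) and the 2 genes nearest to it by root mean square difference (thin lines). GSTU20 and GSTL3 share the low IA, high IB course at a difference of 0.07, while GSTU27 steps down from IA to IB to II.

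Few other genes of glutathione metabolism had a probe set with 1 gene in the annotation, and genes without one were not analysed here. Of 48 other glutathione transferases 9 had such a probe set and 1, GSTL3, was bright enough to test; GSTF4 and GSTF13, of the phi class, were dim on all 6 arrays. Of 20 genes of glutathione synthesis, recycling, breakdown and transport, the glutathione reductases GR1 and GR2, which regenerate reduced glutathione, had such a probe set. With Tween 20, 0 of 2 passed, where 1.02% of all tested probe sets rose and 0.105% fell. GR2, the organellar enzyme, was at 702.9 units with water and 464.5 units with Tween 20 in IA, at 444.7 and 441.3 units in IB, and at 677.4 and 596.5 units in II. It was lower with Tween 20 in each pair, with log2 folds of -0.60 (IA), -0.01 (IB) and -0.18 (the 2.5 h pair), and its estimate was -0.26 (adjusted p = 0.383). The cytosolic GR1 had an estimate of -0.04 (interval -0.25 to 0.17). None of the 8 TGA and SCL14 regulators, which act at detoxification promoters, had a probe set of 1 gene.

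Aliphatic glucosinolate synthesis, the pathway in which GSTU20 has a known role, was represented by 3 of 22 genes, and 0 of 3 passed with Tween 20. Over all tested probe sets, 1.02% passed as higher and 0.105% as lower. The log2 estimates were -0.27 for UGT74C1 and 0.01 for UGT74B1, both of which glucosylate thiohydroximates, and -0.10 for BCAT4, which starts methionine chain elongation (adjusted p = 0.276, 0.974 and 0.629). UGT74C1, like GSTU20, was lower with Tween 20 in each pair, by 0.38, 0.35 and 0.09 in IA, IB and II. Its course over the experiments was different, since it was higher in II than in IA and IB by 0.76 (adjusted p = 0.0114), where GSTU20 lay between them. BCAT4 was also higher in II, at 0.36 (adjusted p = 0.0468, and 0.0763 after median centring, 0.107 with no filter and 0.106 without the intensity trend).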

How the data were processed

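Expression was measured in 6 leaf RNA pools on 6 Affymetrix arrays. The deposited values are signal intensities on a linear scale, made by the authors with MAS5 per the submitters' processing notes. Its version and settings are not stated there. The trimmed mean of every array, between percentiles 2 and 98, was 100.0, so a shift of most transcripts in one direction would not be seen. Signals under 0.1 were set to 0.1 and log2 was taken. The 64 control probe sets were left out, and 14345 of 22810 probe sets reached the 40th percentile of their array on at least 2 arrays. Names came from the GEO platform annotation (13513 probe sets with 1 gene, 503 with several, 8730 with none), of which 13436 matched RefSeq TAIR10.1 by gene identifier. No probe or gene sequence was used here, and no coordinates are printed.

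limma 3.58.1 (R 4.3.3) was fitted with the experiment as a block, moderated variances with a trend on intensity (eBayes), and p-values adjusted by Benjamini-Hochberg over all tested probe sets, with 0.05 as the threshold. The paired fit had 2 residual degrees of freedom, and the fits for 1 h and for 2.5 h had 1. Titles and design text give the pairing. Deviations from the mean of each spray correlated at 0.576, 0.714 and 0.711 between the arrays of IA, IB and II, and at or below -0.03 between experiments, where centring favours negative values. Alternatives were median centring, quantile normalization, log2(signal + 16), a filter at the 60th percentile or none, no trend, no block and leaving out each experiment. The fit was tested on simulated data. The genes and lists were chosen with earlier results of these data known. Genes named are the 5 members, the 2 nearest genes to each, all measured genes of lists with up to 6 measured, and for longer lists the 3 with the largest absolute statistic. GSTU25 and the other dim transferases were named after their values were seen. The leaf and root lists serve as markers. No 2 arrays were identical.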

Additional observations from a re-analysis of the deposited data

Results flagged for a closer look

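GSTU16 was lower with Tween 20 in both 1 h pairs (log2 -0.11 and -0.03) and higher in the 2.5 h pair (0.05). The difference of 0.12 between the effects did not pass limma's interaction test (unadjusted p = 0.670, adjusted p = 0.998). The leaf marker SBPASE, an enzyme of the Calvin cycle, went from -0.27 and -0.23 to 0.05, a difference of 0.30 (unadjusted p = 0.112, adjusted p = 0.998). Of the genes named for a near pattern, AT5G09850 (difference 0.19), AT4G31040 (0.25), AT1G26300 (0.25) and AT2G41190 (0.29) also had both 1 h folds below 0 and the 2.5 h fold above 0, with an adjusted p of 0.998 each. Over all tested probe sets, 36.8% were lower with Tween 20 in both 1 h pairs and 23.6% in all 3 pairs, while 47.7% were higher at 2.5 h. AT5G09850 was picked for its likeness to GSTU16, AT4G31040 for that to GSTU20, and AT1G26300 and AT2G41190 for that to GSTU27. Each choice used these same 6 arrays, so the signs of these genes add no separate evidence. AT1G18270, the gene nearest to GSTU16, did not have this pattern, with a fold of 0.02 in IB.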

How the results depend on the processing

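With Tween 20 against water, 0 of the 5 genes passed in each alternative that has a test, over 3 experiments, at 1 h, at 2.5 h and for the difference between times. Over 3 experiments the estimates kept their sign except GSTU16 without IA (0.01), and GSTU20 ran from -0.27 to -0.15 with adjusted p from 0.303 to 1.000. With no replicate block for the experiment, 0 of the 5 genes and 0 of all probe sets passed over 3 experiments, and 0 and 0 at 1 h. The count over all probe sets (161 over 3 experiments) was 0 with no filter, 2 without the trend, and 0 to 730 with each experiment left out. At 1 h (0) it was 105 after quantile normalization and 9 with the 60th percentile filter. Between IA and IB, 2 genes passed instead of 1 after median centring and with the 60th percentile filter (GSTU18 added). After median centring, 1339 of all 14345 probe sets were higher and 1716 lower in IA. With the 60th percentile filter these were 1376 and 1483 of 9979. With no filter, 1560 of all probe sets passed between IA and IB instead of 3209. Between II and the others, 0 genes instead of 1 and 422 probe sets instead of 2072 passed with no filter. The cause of these changes was not tested. With 1 pair left at a time, the 1 h and 2.5 h effects are values without a test, and GSTU23 at 1 h was -0.19 in IA alone and 0.35 in IB alone. GSTU23 is missing from the 60th percentile filter because it was too dim. Dim signals limit GSTU23 among the 5 genes, whose 3 folds had an SD of 0.28, against 0.08 to 0.13 for the other 4.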
